A study of Mus musculus with 8 samples.

Results

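The focal adhesion plaque is the layer of proteins that joins integrins to actin filaments at sites where a cell holds on to its substrate. *Vcl*, *Tln1*, *Tln2*, *Zyx*, *Pxn*, *Ptk2*, *Ilk*, *Parva*, *Lims1* and *Tns3* were followed here as 10 genes that encode such proteins. They were chosen by name from the 50600 rows of the deposited RNA-seq table, and 10 of 10 were found, each in a single row. RNA was taken from mouse OG2 embryonic stem cells with the genotype c-Jun_TetOn_mESC, which carry a JUN gene that doxycycline switches on, at passage 12 and on a mixed background of 129SVJ, C57B6 and CBA. All libraries, the controls included, came from cells that received 2 μg/ml doxycycline in feeder-free medium with LIF and the inhibitors PD0325901 and Chir99021, so an uninduced state was not part of these comparisons. The cells were treated for 6 h with DMSO (the solvent), with PFI-3 (an inhibitor of the bromodomain of BRG1), with BI-9564 (an inhibitor of the bromodomains of BRD7 and BRD9) or with both compounds (P+B), which made 4 groups of 2 libraries. A figure legend of the study has JUN induction begin before the compounds were added. The labels give no dose, and elsewhere in the study each compound was used at a lower dose in P+B than alone. The supplement names these libraries with the same dose figure for P+B as for each single compound, which leaves the dose unsettled, and P+B and a single compound may differ in more than the added partner. The labels do not say whether the 2 libraries of a group came from separate cultures, so p-values measure the spread between these libraries, which may be technical.

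The proteins of the plaque work in layers. Talins (*Tln1*, *Tln2*) bind the tails of integrin β subunits, switch integrins to their active form and pull on actin, and vinculin (*Vcl*) is recruited to stretched talin and strengthens the link. Paxillin (*Pxn*) and focal adhesion kinase (*Ptk2*) carry signals from the site, integrin-linked kinase (*Ilk*) forms a ternary complex with PINCH1 (*Lims1*) and α-parvin (*Parva*), zyxin (*Zyx*) brings Ena/VASP proteins to strained actin, and tensins such as *Tns3* bind integrin tails in mature adhesions. Mouse embryonic stem cells under LIF grow as compact colonies, and their exit from pluripotency goes along with spreading on the substrate.

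*Tns3* was the gene that passed the test, while *Zyx* and *Vcl* differed between the single compounds without passing the test, and the sequences just before the transcription starts of these 3 genes are shown. They come from RefSeq on GRCm38.p6, which held windows for 6 of the 10 genes (9 windows, since *Ilk* and *Lims1* have several starts). Each was searched on both strands, over the 250 bases before the start, for TGANTCA (the AP-1 motif that JUN dimers bind), TGACGTCA (the related CRE motif), CATTCC (the TEAD motif), the CArG box (the motif of SRF) and GGGCGG (the GC box). The *Tns3* sequence is chr11:8664536-8664785 (minus strand), with GGGCGG or its complement in capitals. The *Vcl* sequence is chr14:20929148-20929397 (plus strand), with the CArG box and the complement of CATTCC in capitals. For *Zyx*, 27 bases around TGANTCA, in capitals, are given from chr6:42349697-42349723 (plus strand).
Tns3: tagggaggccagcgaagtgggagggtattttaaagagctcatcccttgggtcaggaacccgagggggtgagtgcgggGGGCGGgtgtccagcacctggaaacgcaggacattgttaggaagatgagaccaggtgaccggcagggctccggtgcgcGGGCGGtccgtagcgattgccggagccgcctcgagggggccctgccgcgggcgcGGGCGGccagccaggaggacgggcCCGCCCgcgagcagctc
Vcl: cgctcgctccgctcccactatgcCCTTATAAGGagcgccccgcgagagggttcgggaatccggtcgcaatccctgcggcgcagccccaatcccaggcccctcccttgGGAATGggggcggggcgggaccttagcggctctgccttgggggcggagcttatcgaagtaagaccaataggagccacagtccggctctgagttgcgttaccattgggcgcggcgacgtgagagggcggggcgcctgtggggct
Zyx: gtgcggacagTGAGTCAgttctccagc

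In the *Zyx* window TGANTCA began 121 bases before the start (position -121), and that window overlaps an annotated *Zyx* exon. *Zyx* was the only one of the 6 genes with TGANTCA in its windows, and 6.75% of all 32851 windows held it. *Vcl* was the only one with the CArG box (1.47% of all windows) and with CATTCC (12.6%). TGACGTCA was in none of the 9 windows and in 1.55% of all. GGGCGG was in windows of 5 of the 6 genes, *Vcl*, *Zyx*, *Ilk*, *Lims1* and *Tns3*, and in 32.7% of all windows. *Ilk* and *Lims1* also had windows without it, so a count by gene is not like a share by window. GGGCGG was present 4 times in the window of *Tns3*, which had a GC content of 69.6%. In the *Vcl* window GGGCGG lay beside CATTCC without sharing bases with it. These matches describe the letters of the windows and do not show that a factor binds there.

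Values are TPM (transcript abundance scaled for gene length and for the library's total) that the authors made whole numbers, so levels can be compared between genes. With DMSO, *Tln1* was the most abundant, at 80 and 78 TPM in its 2 libraries, a mean of 79 ± 1.41 (SD, n = 2). *Ilk* followed at 76 and 74, and its range did not meet that of *Tln1*. *Tns3* (42 and 44), *Ptk2* (41 and 45) and *Vcl* (38 and 44) formed the next level, where neighbours overlapped. *Zyx* (29 and 36), *Pxn* (31 and 30) and *Lims1* (30 and 26) came below them and overlapped too. *Tln2* was lower at 19 and 21, and *Parva* the lowest at 8 and 7, where a step of a single TPM is a large part of the value. The sum of the 10 genes was 394 and 405 TPM with DMSO, 364 and 370 under PFI-3, 382 and 378 under BI-9564, and 350 and 359 under P+B. The sum was thus lower in all 6 libraries with a compound than in both DMSO libraries.

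**Figure D1:**
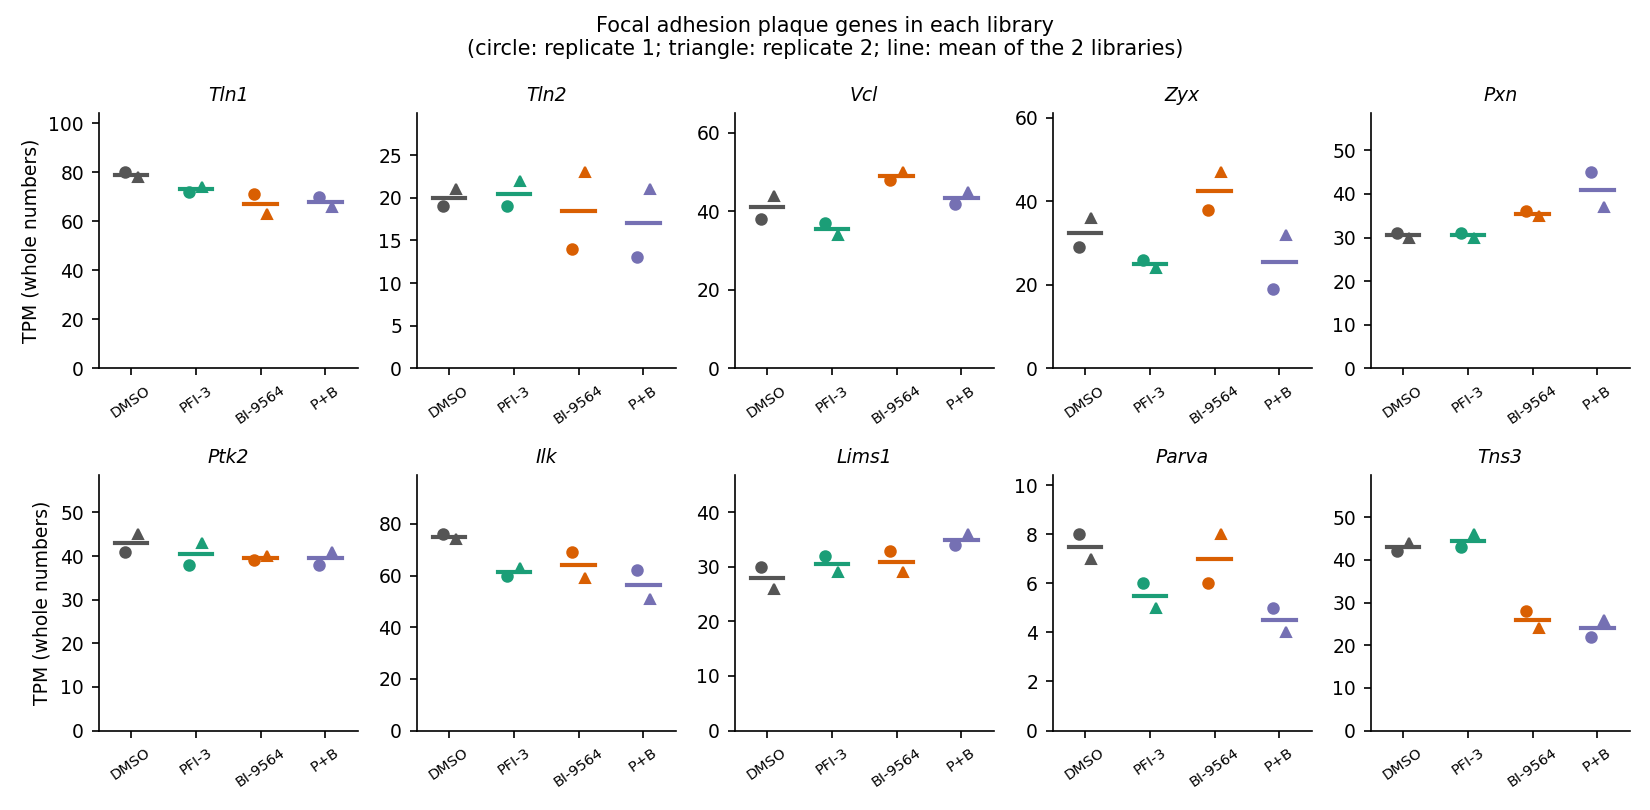
TPM of the 10 genes (y axis, from 0, a scale for each gene) in the 4 groups (x axis), with a circle for replicate 1, a triangle for replicate 2 and a line for the mean of the 2. The 4 *Tns3* values with BI-9564 and P+B lie between 22 and 28 TPM, and the 4 with DMSO and PFI-3 between 42 and 46.

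*Tns3* fell with P+B. Its values were also lower with BI-9564 alone, a difference that passed the test only with the replicate number as a block. The gene spans 8431652 to 8664535 on chromosome 11 (GRCm38), free of other annotated genes. Its values were 42 and 44 TPM under DMSO and 43 and 46 under PFI-3, against 28 and 24 under BI-9564 and 22 and 26 under P+B. Both groups with BI-9564 stood below both groups without it, and the BI-9564 and P+B ranges overlapped. With P+B against DMSO the log2 change was -0.82 (standard error, SE, 0.14, limma's adjusted p = 0.0185). It was the only gene of the 10 past the thresholds, which were an adjusted p under 0.05 over all 10222 genes tested and a fold change of at least 1.5. Of all those genes 278 were lower past the thresholds (2.72%) and 131 higher (1.28%), 4.0% together. In bulk RNA, fewer cells of a type and less RNA per cell cannot be told apart.

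Against PFI-3, the *Tns3* difference with P+B was -0.87 in log2 value (SE 0.14, limma's adjusted p = 0.0279), a comparison in which 1.31% of all tested genes passed (1.05% lower and 0.264% higher, and 3.43% in all with the replicate block). This call was lost whichever of the 8 libraries was left out (adjusted p from 0.0565 to 0.21), in a fit of only the 4 libraries compared (0.241), without a trend (0.0569) and with a lower minimum mean or none (0.0504 and 0.0788). With BI-9564 alone the difference from DMSO was -0.71 (standard error 0.14), but its adjusted p of 0.115 from limma did not pass, in a comparison where 0.108% of all genes passed (0.0783% lower and 0.0293% higher). With the replicate number as a block, it passed (limma's adjusted p = 0.0443, with 1.53% of all genes called). So did BI-9564 against PFI-3, at -0.76 (adjusted p = 0.0408 against 0.0834 without the block). There 1.48% of all genes were called against 0.108% without the block, of which 0.0783% lower and 0.0293% higher. The block did not lower the unadjusted p of *Tns3* from limma. This p was 0.000961 against 0.000953 without the block for BI-9564 against DMSO, and 0.000642 against 0.000623 for BI-9564 against PFI-3. The adjusted p of *Tns3* fell because more of the other genes had low p-values with the block. PFI-3 alone left *Tns3* at a difference of 0.05 from DMSO, with a 95% interval of -0.28 to 0.37 (intervals here are not adjusted for the number of genes). P+B and BI-9564 differed by -0.11 (95% interval -0.44 to 0.21, adjusted p = 0.924 from limma), and the departure of P+B from the sum of the single compounds was -0.16 (95% interval -0.62 to 0.30). These intervals do not show that P+B and BI-9564 act alike.

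The libraries were then split by BI-9564, a split chosen because *Tns3* had been seen to separate in this way, so that its *Tns3* values are a description. The 4 libraries with BI-9564 had a mean *Tns3* level of 25 TPM and the 4 without BI-9564 of 43.8 TPM. The log2 difference was -0.79. In the same contrast 3.19% of all tested genes passed, 1.99% lower and 1.20% higher, and none of the other 9 genes passed. Between the 4 libraries with PFI-3 and the 4 without it *Tns3* differed by -0.03 (limma's adjusted p = 0.96), and 0 of the 10 genes passed, where 0.323% of all genes did. The comparison of the 2 P+B with the 2 DMSO libraries rested on each of them. Without DMSO replicate 1, DMSO replicate 2, P+B replicate 1 or P+B replicate 2 its adjusted p was 0.0936, 0.108, 0.101 or 0.06, and a fit of only these 4 libraries gave 0.129, in which 0 genes were called.

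The talins and vinculin did not pass the test in any comparison. *Tln1* (chromosome 4, 43531519 to 43562691) had 80 and 78 TPM under DMSO, 72 and 74 under PFI-3, 71 and 63 under BI-9564, then 70 and 66 under P+B. All 6 libraries with a compound were below both DMSO libraries, but the log2 differences were small, at -0.11 for PFI-3, -0.24 for BI-9564 and -0.21 for P+B (adjusted p = 0.91, 0.336 and 0.268 from limma). *Tln2* (chromosome 9, 67217087 to 67559703), the less abundant talin, had 19 and 21 TPM under DMSO, 19 and 22 under PFI-3, 14 and 23 under BI-9564, then 13 and 21 under P+B. Its groups overlapped, and replicate 2 was above replicate 1 in all 4 of them. The ratio of *Tln1* to *Tln2* within a library ranged from 2.74 to 5.38, both ends of which were in libraries with BI-9564.

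*Vcl* (chromosome 14, 20929398 to 21033676) had 38 and 44 TPM under DMSO, 37 and 34 under PFI-3, 48 and 50 under BI-9564, then 42 and 45 under P+B. Both PFI-3 libraries were thus below, and both BI-9564 libraries above, the DMSO libraries, while those with P+B overlapped them. The log2 differences from DMSO were -0.20, 0.25 and 0.09. The widest gap was that between BI-9564 and PFI-3, 0.45 in log2 value (standard error 0.12), with an adjusted p of 0.191 from limma, and 0.0871 with the replicate block.

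*Zyx* (chromosome 6, 42349630 to 42360213) had 29 and 36 TPM under DMSO, 26 and 24 under PFI-3, 38 and 47 under BI-9564, then 19 and 32 under P+B. As for *Vcl*, both libraries with PFI-3 were below and both with BI-9564 above the DMSO libraries, and the 2 P+B libraries lay far apart. The log2 difference between BI-9564 and PFI-3 was 0.74 (SE 0.24, limma's adjusted p = 0.251). That between P+B and BI-9564 was -0.75 (SE 0.24, limma's adjusted p = 0.481), a comparison in which 20 genes, 0.196% of those tested, were called (0.802% with the replicate block). The difference between P+B and DMSO, -0.38, rested on P+B replicate 1, as it was -0.01 without it and -0.74 without P+B replicate 2. *Epha1* and a non-coding gene overlap *Zyx* on the other strand, and whether reads were counted by strand is not given in the sources used here.

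Neither paxillin nor focal adhesion kinase passed the test in any comparison. *Pxn* (chromosome 5, 115506676 to 115555987) had 31 and 30 TPM under DMSO, 31 and 30 under PFI-3, 36 and 35 under BI-9564, then 45 and 37 under P+B. The DMSO and PFI-3 values were identical, and the 4 libraries with BI-9564 were all higher. With P+B the log2 difference from DMSO was 0.41 (standard error 0.13, 95% interval 0.10 to 0.72), with an adjusted p of 0.122 from limma and 0.0639 with the replicate block. *Ptk2* (chromosome 15, 73205102 to 73423280) stayed between 38 and 45 TPM in all 8 libraries, and its log2 differences from DMSO were -0.09 for PFI-3, -0.12 for BI-9564 and -0.12 for P+B. The 95% interval of the last was -0.40 to 0.16, which leaves out a fold change of 1.5 in either direction.

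Of the ternary complex of ILK, PINCH1 and α-parvin, *Ilk* and *Parva* had lower and *Lims1* higher values with P+B. *Ilk* (chromosome 7, 105736592 to 105742925) had 76 and 74 TPM under DMSO, 60 and 63 under PFI-3, 69 and 59 under BI-9564, then 62 and 51 under P+B. All 6 libraries with a compound were below both with DMSO. The log2 difference with P+B was -0.41 (standard error 0.13), with an adjusted p of 0.113 from limma and 0.0532 with the replicate block. *Rrp8* and *Taf10* overlap *Ilk* on the other strand.

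*Parva* (chromosome 7, 112427505 to 112591692) had 8 and 7 TPM under DMSO, 6 and 5 under PFI-3, 6 and 8 under BI-9564, then 5 and 4 under P+B. The 4 libraries that had PFI-3, alone or in P+B, held 4 to 6 TPM and the 4 without it 6 to 8, and the difference with P+B, -0.63 in log2 value, had a wide standard error of 0.29 (adjusted p = 0.244 from limma). *Lims1* (chromosome 10, 58323466 to 58424691) had 30 and 26 TPM under DMSO, 32 and 29 under PFI-3, 33 and 29 under BI-9564, then 34 and 36 under P+B, a log2 difference of 0.31 with P+B (SE 0.14, limma's adjusted p = 0.231). The ratio of *Ilk* to *Lims1* was 2.53 and 2.85 under DMSO, 1.88 and 2.17 under PFI-3, 2.09 and 2.03 under BI-9564, and 1.82 and 1.42 under P+B. Every library with a compound was thus below both DMSO libraries in this ratio, not only those with P+B. That ratio was not tested.

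**Figure D2:**
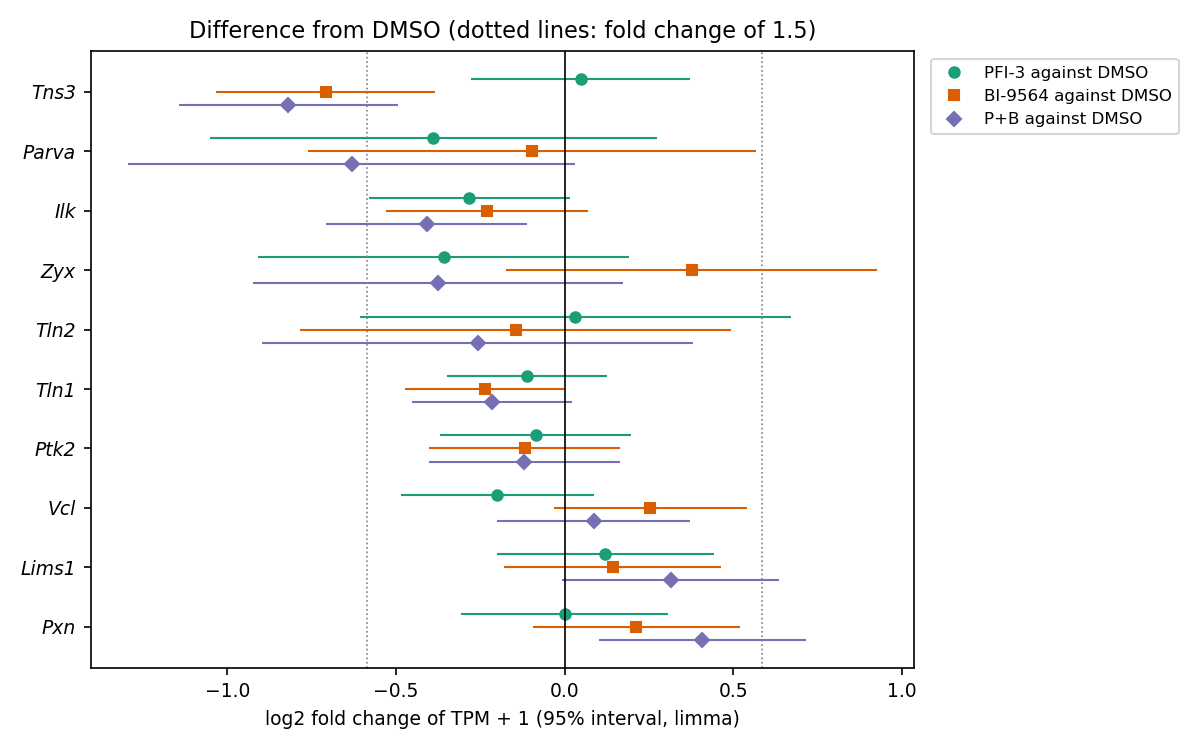
Log2 fold change against DMSO (x axis, on TPM + 1) of the 10 genes (y axis) with PFI-3, BI-9564 and P+B, each point with its unadjusted 95% interval from limma and dotted lines at a fold change of 1.5. *Tns3* lies at -0.71 with BI-9564 and -0.82 with P+B, and at 0.05 with PFI-3.

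Taken over the 10 genes, 7 were below and 3 above 0 with P+B, and their median log2 change was -0.24 against 0.06 for all tested genes, of which 41.7% were below 0. The median was -0.04 without P+B replicate 1. The values of both libraries lay apart from DMSO in 6 of the 10 genes with P+B, with *Pxn* and *Lims1* higher and *Tln1*, *Ilk*, *Parva* and *Tns3* lower. Among all tested genes 28.6% were higher and 18.9% lower in this sense, so such a separation was common. With PFI-3 *Vcl*, *Tln1*, *Zyx*, *Ilk* and *Parva* were lower in both libraries and none was higher, against 12.8% and 16.5% of all genes. With BI-9564 *Tln1*, *Ptk2*, *Ilk* and *Tns3* were lower (18.3% of all genes) and *Vcl*, *Zyx* and *Pxn* higher (22.9%). P+B against PFI-3 had *Tln1* and *Tns3* lower (18.9%) and *Vcl*, *Pxn* and *Lims1* higher (23.8%), P+B against BI-9564 had *Vcl*, *Zyx* and *Parva* lower (13.7%) and *Pxn* and *Lims1* higher (17.6%), and BI-9564 against PFI-3 had *Tln1* and *Tns3* lower (19.9%) and *Vcl*, *Zyx* and *Pxn* higher (20.5%). At an unadjusted p under 0.05, 3 of the 10 genes differed with P+B against DMSO (22.6% of all genes), 1 with BI-9564 against DMSO (14.9%), 3 with P+B against PFI-3 (16.6%), 1 with P+B against BI-9564 (7.97%) and 3 with BI-9564 against PFI-3 (14.2%). With PFI-3 the median was -0.10 and with BI-9564 -0.11, against 0.02 for all genes in each. With PFI-3 alone 0.00% of all genes were called, with 694 (6.79%) at an unadjusted p under 0.05, and none of those was among the 10. In the test of P+B against the sum of the single compounds 0.00% of genes passed either, with 333 (3.26%) at an unadjusted p under 0.05 and, again, none of the 10. These comparisons share libraries and are not independent. The shares of all genes apart between libraries with and without BI-9564, or between DMSO and all libraries with a compound, were not counted.

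The other genes of the plaque were followed with a list of 61 adaptors, kinases and LIM proteins from general knowledge. Of these, 46 were tested, and with P+B 5 of them passed as lower and 0 as higher, against 2.72% and 1.28% of all genes. With the replicate block 9 passed, of which *Evl* was higher, against 7.02% of all genes. The list's median was -0.06 against 0.06 for all genes. The 5 were *Tns1*, *Src*, *Enah*, *Vasp* and *Fhl2*. *Tns1*, another tensin, had 31 and 39 TPM under DMSO, 31 and 30 under PFI-3, 22 and 17 under BI-9564, then 9 and 10 under P+B, a log2 change of -1.77 (SE 0.18, limma's adjusted p = 0.00282). The P+B libraries had the lowest *Tns1* values of all, below those with BI-9564, and P+B against PFI-3 passed as well (-1.59, adjusted p = 0.0111), while P+B against BI-9564 did not (-0.96, adjusted p = 0.152). *Tns2* and *Tns4*, the remaining tensins, were at 0 or 1 TPM throughout, and *Tns1* and *Tns3* together went from 73 and 83 TPM under DMSO to 31 and 36 under P+B.

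*Src*, the kinase that binds activated focal adhesion kinase, had 63 and 60 TPM under DMSO, 59 and 51 under PFI-3, 37 and 40 under BI-9564, then 33 and 36 under P+B. Its 4 values with BI-9564 did not reach the 4 without it, as for *Tns3*, *Tns1* and *Vasp*. *Ajuba*, *Lasp1*, *Trip6* and *Parvb* of the list were lower in the same way, and *Evl* and *Pip5k1c* higher. The share of all genes apart in this way was not counted. On the log2 scale *Src* with P+B differed from DMSO by -0.82 (SE 0.12, limma's adjusted p = 0.0103), and with BI-9564 alone it was -0.66 (adjusted p = 0.0893, and 0.038 with the replicate block). *Enah* and *Vasp* encode the actin-elongating proteins that zyxin recruits. *Enah* had 143 and 148 TPM under DMSO, 125 and 149 under PFI-3, 107 and 131 under BI-9564, then 81 and 87 under P+B (log2 change -0.79, adjusted p = 0.0139 from limma). *Vasp* had 177 and 172 TPM under DMSO, 163 and 147 under PFI-3, 130 and 119 under BI-9564, then 125 and 95 under P+B (-0.67, adjusted p = 0.0299 from limma). Both P+B values were below both DMSO values for *Enah* and for *Vasp*. *Evl*, of the same Ena/VASP family, went the other way, with 26 and 26 TPM under DMSO and 40 and 45 under P+B. Its log2 change was 0.69 (limma's adjusted p = 0.101, and 0.0472 with the replicate block). *Fhl2*, a LIM-only protein, had low values, 12 and 8 TPM under DMSO against 1 and 3 under P+B (-1.94, adjusted p = 0.0442 from limma). Kindlin-2 (*Fermt2*), which activates integrins beside talin, had 77 and 77 TPM under DMSO against 73 and 67 under P+B, a difference of -0.14 that did not pass (adjusted p = 0.445 from limma).

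**Figure D3:**
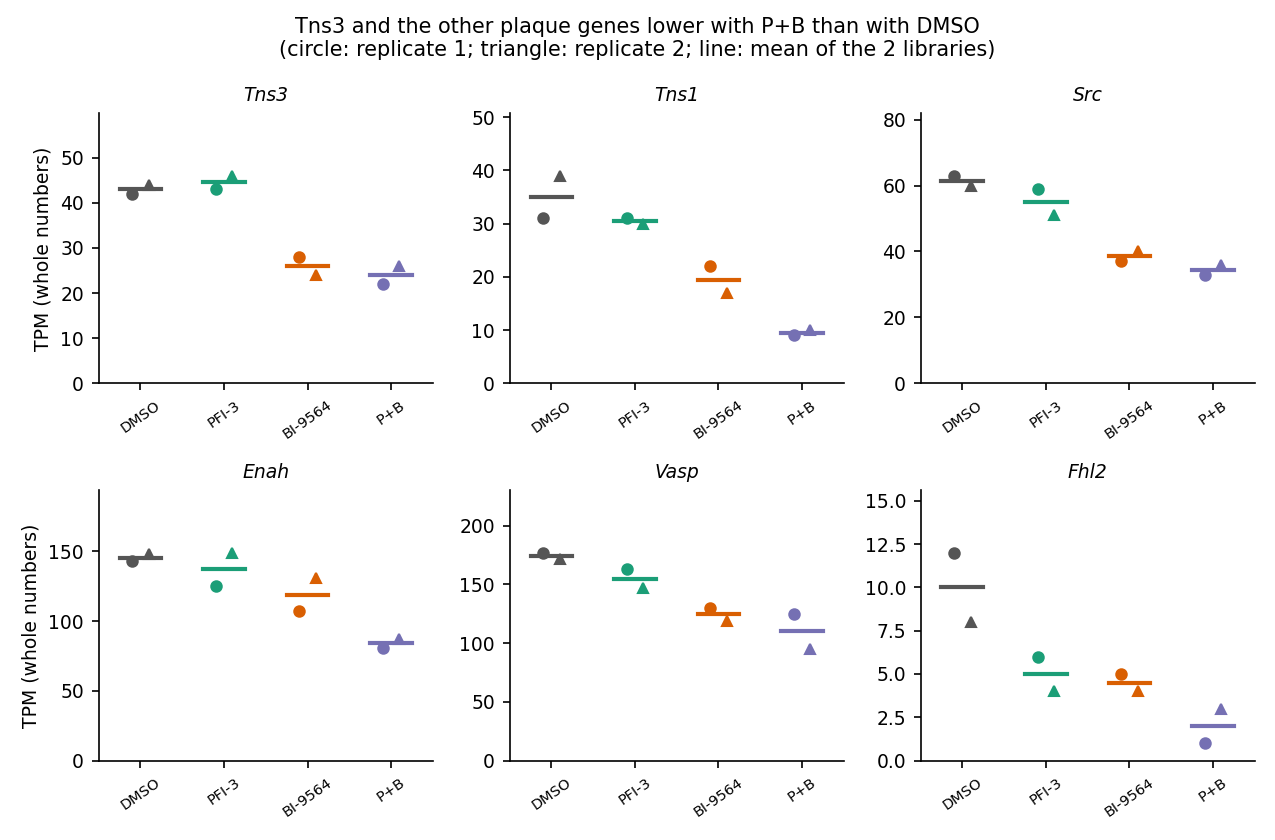
TPM (y axis, from 0, a scale for each gene) of *Tns3* and the 5 listed genes that passed as lower with P+B. The 4 groups are on the x axis, with a circle for replicate 1, a triangle for replicate 2 and a line for their mean. *Tns1* falls to 9 and 10 TPM with P+B, and *Tns1*, *Src* and *Vasp*, like *Tns3*, have separate values with and without BI-9564, as do listed genes not shown.

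Of the integrin genes, 9 were tested, and with P+B 4 of them, *Itga3*, *Itga6*, *Itga5* and *Itga7*, passed as lower, by log2 changes from -1.98 to -1.20, and 0 as higher, where 2.72% of all genes were lower and 1.28% higher. The median of the 9 was -0.41, against 0.06 for all genes and -0.24 for the 10 plaque genes.

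*Jun*, the induced gene, had 1970 and 2877 TPM under DMSO, 1570 and 2227 under PFI-3, 2071 and 3011 under BI-9564, then 1569 and 2159 under P+B. Replicate 2 was above replicate 1 in all 4 groups. Its level was set beside those of the 10 genes over the 8 libraries after the values of *Zyx* had been seen, which gave 10 relations. *Zyx* had a Pearson r of 0.80 (exact permutation p = 0.0176, two-sided, adjusted p = 0.176 over the 10) and a Spearman rho of 0.67 (exact permutation p = 0.0831, adjusted p = 0.228). Within the 4 libraries of replicate 1 and the 4 of replicate 2, r was 0.87 and 0.84, and without the 2 libraries farthest from the median *Jun* level, DMSO replicate 2 and BI-9564 replicate 2, it was 0.54. The relation thus failed the correction, and the treatments differ between the libraries. Of the others, *Tln2* had the highest Spearman rho, 0.88 (exact permutation p = 0.0062, adjusted p = 0.0615), with a Pearson r of 0.66 (exact permutation p = 0.0637, adjusted p = 0.205). Its r was -0.01 and 0.43 within the replicate numbers and 0.52 without the same 2 libraries. *Tln2*, like *Jun*, was higher in replicate 2 than in replicate 1 in all 4 groups. The permutations moved all 8 libraries freely, over treatments and replicate numbers, so these p-values do not set that shared shift apart. *Tns3* showed no such relation, with an r of 0.01 (exact permutation p = 0.985).

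**Figure D4:**
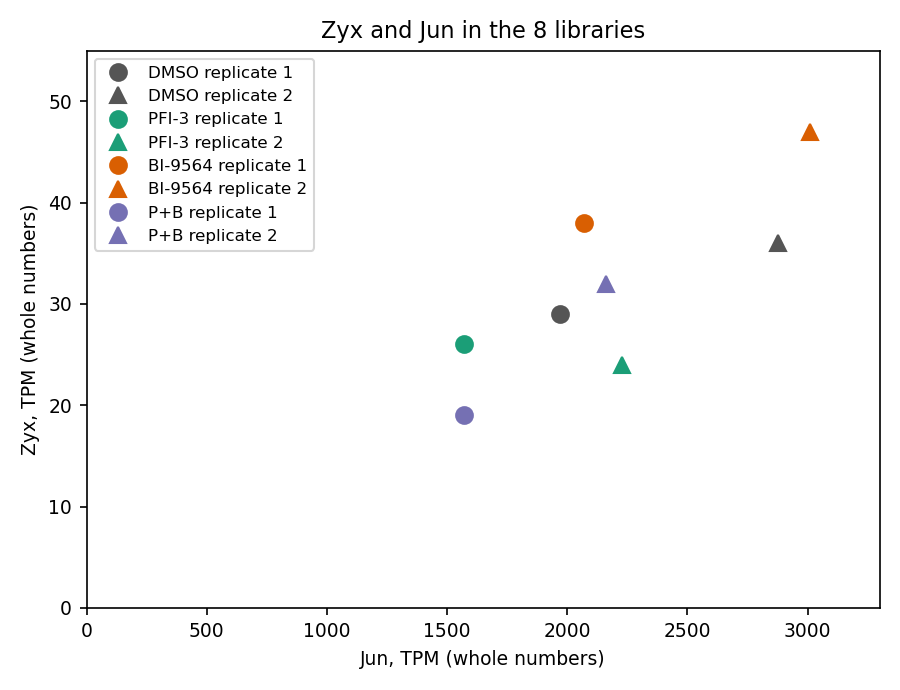
*Zyx* (y axis, TPM from 0) against *Jun* (x axis, TPM from 0) in each of the 8 libraries, coloured by group, with circles for replicate 1 and triangles for replicate 2. The highest *Zyx* value, 47 TPM, is in the library with the highest *Jun* value, 3011 TPM, and the lowest, 19 TPM, in that with 1569 TPM.

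By the root mean square difference between centred log2 profiles over the 8 libraries, the genes closest to *Tns3* among all those tested were *Nlrp4f* (0.09), *Sall1* (0.10) and *Slc38a1* (0.11), against a median of 0.47 over all genes. *Sall1*, a zinc finger factor, had 48 and 43 TPM under DMSO, 41 and 45 under PFI-3, 26 and 25 under BI-9564, then 24 and 29 under P+B. Its groups with and without BI-9564 were apart in the same way as those of *Tns3*. This follows from its choice by likeness to *Tns3* over the same libraries and adds no support.

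The libraries were those of embryonic stem cells by their markers. All 10 markers of that type had a mean of at least 5 TPM, and their summed level was 3771 to 4970 TPM with DMSO, 4240 to 5248 under PFI-3, 3335 to 4392 under BI-9564, then 3523 to 4488 under P+B. Without *Dppa5a*, the highest of them, the sums were 2045 and 1846 under DMSO against 1900 and 1636 under P+B. Single markers moved in both directions. *Tdgf1* had 163 and 156 TPM under DMSO, 221 and 196 under PFI-3, 101 and 76 under BI-9564 and 82 and 84 under P+B. *Esrrb* had 86 and 58 under DMSO, 128 and 110 under PFI-3, 76 and 54 under BI-9564 and 141 and 100 under P+B. Its PFI-3 and P+B ranges overlapped. Of 10 fibroblast markers, 6, among them *Col1a2*, *Dcn* and *Lum*, were at 0 in all libraries, and the list summed to 0 to 5 TPM. Other lists had lower sums with P+B than with DMSO. The 10 primitive endoderm genes, *Pdgfra*, *Foxa2* and *Sox7* at 0, summed to 499 to 645 TPM under DMSO but to 360 to 426 under P+B, most of it *Sparc*, without which the sums were 33 and 33 against 27 and 34. The 8 trophoblast genes, *Krt7* at 0, went from 87 to 100 TPM under DMSO to 50 to 69 under P+B. *Tead4* alone went from 77 and 67 to 45 and 22 TPM, and without it the list summed to 23 and 20 under DMSO against 24 and 28 under P+B, where *Cdx2* had 5 and 10 TPM against 1 and 0. The 8 smooth muscle and endothelium genes, *Acta2*, *Myh11* and *Cdh5* at 0, were at 66 to 68 TPM with DMSO, 55 to 60 under PFI-3, 35 to 37 under BI-9564, then 32 to 35 under P+B, most of it *Pecam1*, which had 53 and 53 TPM with DMSO and 28 and 27 with BI-9564. Without *Pecam1* that list summed to 15 and 13 under DMSO against 10 and 7 under P+B. The part of these changes in the values of *Tns3* was not tested.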

How the data were processed

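RNA-seq libraries were prepared by the authors from total RNA with a VAHTS mRNA-seq kit (oligo-dT selection). The submitters' processing notes name bcl2fastq, Bowtie2 2.2.5, RSEM 1.3.0 and mm10, and the annotation is not given in the sources used here. Each cell of the deposited table is a score, a TPM value made a whole number by the authors. Whether decimals were rounded or cut off was not tested. Library sums were 991574 to 991897, and 10285 to 10451 genes per library had at least 5. The number of reads behind a TPM is not kept, so no counting error is given and no count model was run.

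Values were analysed as log2(value + 1), which understates changes of low genes, with limma 3.58.1 in R 4.3.3 (lmFit, eBayes with a trend) over the 10222 genes whose mean across the 8 libraries reached 5, which kept all 10 members. The 4 groups were fitted together, with 4 residual degrees of freedom, and Benjamini-Hochberg adjustment was made within each comparison. A gene passed at an adjusted p under 0.05 together with a 1.5-fold change or more. Fold changes are on the log2(value + 1) scale. With 2 libraries against 2, an exact permutation test cannot go below 0.333. The code was tested on simulated data.

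The labels number the replicates alike in every group. Taken gene by gene, replicate 1 minus replicate 2 correlated between any pair of groups (r from 0.143 to 0.236 over 6 pairs). The main fit left this pairing out, so its p-values and intervals are unpaired. A second fit had the replicate numbers as a block, and its values are given as those with the replicate block.

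The members, lists and contrasts were chosen with earlier results of these data known. Named are all members, the listed plaque and integrin genes past the thresholds with P+B (up to 8), *Jun*, and the 3 genes nearest to each member past the thresholds. *Evl*, *Fermt2*, *Tns2*, *Tns4*, *Pecam1*, *Sparc*, *Tead4* and *Cdx2* were named after their values were seen. The same holds for *Ajuba*, *Lasp1*, *Trip6*, *Parvb*, *Pip5k1c*, *Dppa5a*, *Tdgf1* and *Esrrb*. Positions are from GENCODE M21 (GRCm38).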

Additional observations from a re-analysis of the deposited data

How the results depend on the processing

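Tried were a replicate block, a pseudocount of 0.5 or 5 in place of 1, a minimum mean of 1 or 20 or no minimum, quantile normalization, centring on the median, no trend in limma, fits restricted to the compared libraries, calls without the fold threshold or at 0.01, and the omission of each library. Of 10 genes, 1 was called with P+B against DMSO and 1 against PFI-3, *Tns3* in each. With the replicate block, 1 was also called with BI-9564 against DMSO and 1 with BI-9564 against PFI-3, where the fit without it called 0. The pairing changed no other call among the 10 genes. With P+B against DMSO the count was 0 in a fit of only the libraries compared and 0 at an adjusted p under 0.01. With P+B against PFI-3 it was 0 in both of those, 0 with a mean of at least 1 (*Tns3*, adjusted p = 0.0504), 0 without a filter on low values (0.0788) and 0 without a trend (0.0569). Leaving out each library gave counts from 0 to 1 for P+B against DMSO and 0 for each library left out of P+B against PFI-3, with log2 values of *Tns3* from -0.94 to -0.70 and from -0.98 to -0.75. Where a group is left with 1 library, it is assumed to vary like the others. The genes other than *Tns3* were called 0 times among 1237 values under these alternatives. In the main comparisons the median of all genes was 0.06 or less and moved to -0.03 with P+B under median centring. Higher and lower calls over all genes with P+B were 131 and 278, against 81 and 305 with quantile normalization and 86 and 401 with median centring. A minimum mean of 20 left 8 of the 10 genes to test. Depth is unknown, and the whole numbers limit *Parva* the most.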
